A study of Mus musculus with 6 samples.

Results

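The genes described here are 10 transcription factors of the AP-1 and immediate early class, Fos, Fosb, Fosl2, Jun, Junb, Jund, Maff, Atf3, Egr1 and Nr4a1, taken by gene symbol from the 55487 genes in the files. Each symbol matched 1 row, and all 10 had enough counts to be tested. They were measured by bulk RNA sequencing in the left ventricle of 8-week-old male wild-type C57BL/6 mice. ET animals were fed a diet with 5% ethanol over 10 days, followed by 1 gavage of ethanol, a short model of binge drinking on top of feeding, and their disease state is labelled alcoholic cardiomyopathy. CONT animals were given an isocaloric control diet and a gavage of maltose-dextrin. Ventricles were taken 9 h after the gavage in both groups, so a transcript that peaked and fell within the first hours would not be seen at its peak. There were 6 libraries, 3 of ET and 3 of CONT. Whether the libraries of a group stem from different mice is not stated in the labels, so the spread that the p-values rest on may be technical.

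Immediate early genes are switched on within minutes of a stimulus because their activators are already present in the cell. Kinase cascades phosphorylate serum response factor partners and CREB, which sit on these promoters, and the transcripts then decay quickly. FOS proteins must pair with a JUN protein to bind the AP-1 element, whereas JUN proteins can also pair with each other. MAFF is a small MAF protein with a leucine zipper and no activation domain. ATF3 is a stress-induced factor of the CREB/ATF family, EGR1 a zinc finger factor and NR4A1 an orphan nuclear receptor. In the heart, these genes are known to respond to stretch, adrenergic drive, reperfusion and handling of the tissue.

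Coordinates are from GENCODE vM21 on GRCm38 (mm10), and each value covers all exons of a protein-coding gene. Maff (ENSMUSG00000042622) lies on chromosome 15 at 79346621 to 79359076 on the plus strand, and Fosl2 (ENSMUSG00000029135) on chromosome 5 at 32135801 to 32157842 on the plus strand. Fos (ENSMUSG00000021250) is on chromosome 12 at 85473890 to 85477273 (plus), Fosb (ENSMUSG00000003545) on chromosome 7 at 19302696 to 19310051 (minus) and Nr4a1 (ENSMUSG00000023034) on chromosome 15 at 101254269 to 101274795 (plus). Junb (ENSMUSG00000052837) is on chromosome 8 at 84974484 to 84978718 (minus), Jund (ENSMUSG00000071076) on chromosome 8 at 70698949 to 70700616 (plus) and Jun (ENSMUSG00000052684) on chromosome 4 at 95049034 to 95052222 (minus). Atf3 (ENSMUSG00000026628) is on chromosome 1 at 191170296 to 191218039 (minus). Egr1 (ENSMUSG00000038418) is given by its identifier alone. Jun and Jund have a single exon. Genes on the opposite strand share 52.6% of the exon bases of Jund (Gm11175), 7.52% of Junb (Prdx2) and 7.28% of Jun (Junos). The sources used here do not give the use of strand in counting, which leaves these 3 genes, above all Jund, uncertain by reads from those neighbours.

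Promoter windows from RefSeq on GRCm38.p6 cover 250 bases before and 50 bases from an annotated start. The scan took in 11 windows of 9 of the 10 genes, and Egr1 was left out. Those of the 2 genes whose groups did not overlap (Maff and Fosl2) and of 3 genes with a wide spread between libraries (Fos, Junb and Nr4a1) are shown 5′ to 3′ on the strand of the gene. Capitals mark matches to TGACG (the core of the cAMP response element, or CRE), the full CRE TGACGTCA that contains it, the EGR element GCGNGGGCG, the STAT-type element TTCNNNGAA (all on both strands) and TATAAA (strand of the gene only).
Maff, chr15:79347270-79347569, plus strand: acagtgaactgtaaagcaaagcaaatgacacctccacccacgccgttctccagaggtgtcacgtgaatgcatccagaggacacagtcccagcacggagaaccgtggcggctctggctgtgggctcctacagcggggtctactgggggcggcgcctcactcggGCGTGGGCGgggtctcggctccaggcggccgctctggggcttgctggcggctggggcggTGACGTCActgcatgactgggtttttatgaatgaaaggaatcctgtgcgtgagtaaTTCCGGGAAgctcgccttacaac
Fosl2, chr5:32136222-32136521, plus strand: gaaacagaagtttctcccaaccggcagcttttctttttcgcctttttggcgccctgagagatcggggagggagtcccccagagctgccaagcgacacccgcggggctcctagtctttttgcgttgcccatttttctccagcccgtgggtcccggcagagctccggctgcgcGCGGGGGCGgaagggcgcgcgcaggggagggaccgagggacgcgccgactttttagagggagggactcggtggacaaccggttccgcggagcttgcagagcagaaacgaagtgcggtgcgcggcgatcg
Fos, chr12:85473640-85473939, plus strand: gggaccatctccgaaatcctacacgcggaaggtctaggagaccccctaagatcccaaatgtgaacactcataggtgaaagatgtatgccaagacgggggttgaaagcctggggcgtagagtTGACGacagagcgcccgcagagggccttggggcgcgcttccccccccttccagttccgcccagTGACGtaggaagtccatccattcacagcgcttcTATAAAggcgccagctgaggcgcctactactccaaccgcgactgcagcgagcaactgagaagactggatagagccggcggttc
Junb, chr8:84978699-84978998, minus strand: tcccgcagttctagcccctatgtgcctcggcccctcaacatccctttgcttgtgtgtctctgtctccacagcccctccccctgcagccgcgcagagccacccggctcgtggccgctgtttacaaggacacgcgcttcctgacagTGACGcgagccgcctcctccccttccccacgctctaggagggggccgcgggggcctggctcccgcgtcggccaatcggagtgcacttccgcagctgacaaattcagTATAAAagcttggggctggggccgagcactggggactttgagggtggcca
Nr4a1, chr15:101266596-101266895, plus strand: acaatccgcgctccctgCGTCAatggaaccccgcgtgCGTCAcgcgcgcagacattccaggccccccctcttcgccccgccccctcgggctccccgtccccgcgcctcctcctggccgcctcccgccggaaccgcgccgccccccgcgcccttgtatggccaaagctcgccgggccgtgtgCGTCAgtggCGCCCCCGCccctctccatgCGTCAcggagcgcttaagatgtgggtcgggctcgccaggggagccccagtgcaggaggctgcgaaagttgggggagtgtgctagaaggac

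TGACG stood in 7 of the 11 windows, those of Fos, Fosb, Junb, Maff, Atf3 and Nr4a1, and in 20.8% of all 32851 RefSeq windows of this length. Nr4a1 held 4 copies and Fos 2. The full CRE was found in the second of 3 Maff windows, at positions -29 to -22 from the start, and in 1.79% of all windows. That window was chosen for printing because it held most of the Maff matches: the first had none and the third 1 TGACG core. The EGR element was present in the windows of Fosb, Fosl2, Maff and Nr4a1 (5.55% of all windows), and it was the match found in Fosl2. TATAAA was present in Fos and Junb (8.32%), the STAT-type element in Maff (8.3%), and no window held the serum response CArG box (1.63%), the AP-1 element TGANTCA (7.81%) or the NR4A element AAAGGTCA (1.51%). These matches are letters in short windows and do not show binding. A missing match likewise does not show that a gene lacks the element. Bases further upstream and variants of these patterns were not searched, and Egr1 was not scanned. The Jund window, chr8:70697489-70697788, lies wholly upstream of the GENCODE start of Jund at 70698949, so the bases at that start were not scanned. In Junb, TATAAA lies at positions 0 to 5, on the annotated start and not before it.

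Library totals ran from 31553420 to 33599269 expected counts in ET and from 28838386 to 37762233 in CONT. The ventricular label was checked against cell markers, given as sums over 10 genes per list of CPM, counts scaled to library size and TMM factors. The cardiomyocyte list summed to between 35938 and 63951 CPM in ET and between 56935 and 67250 CPM in CONT, the lowest library being ET replicate 1. All 10 atrial markers were detected, with sums of 9324, 431 and 152 CPM in ET replicates 1 to 3 and 178, 141 and 1772 CPM in CONT replicates 1 to 3. The fibroblast list stood at 4514 CPM in ET replicate 1 and at 1703 to 2059 CPM in the other 5 libraries. ET replicate 1 also stood apart in macrophage markers (610 CPM, against 264 to 279 CPM elsewhere) and mesothelial markers (237 CPM, against 11.5 to 38.7 CPM elsewhere). Neutrophil markers were at 48.3 CPM in ET replicate 3 and at 1.75 to 8.28 CPM elsewhere. The hepatocyte list summed to 123 and 118 CPM in ET replicates 1 and 3 and to 7.06 to 24.5 CPM elsewhere, through different genes. In ET replicate 1, Ahsg (79.6 CPM) and Cyp2e1 (36.5 CPM) made up most of the sum and Alb was at 2.16 CPM, whereas Alb was at 46.7 CPM in ET replicate 3. Clustering on the effective gene lengths of the files was cut at 2 sets in advance. It gave set 1 (ET replicate 1, CONT replicates 1 and 2) and set 2 (ET replicates 2 and 3, CONT replicate 3), and this division crosses the groups. The sets are not sharply apart: CONT replicate 3 was as near to ET replicate 1 (mean absolute log2 difference 0.0758) as to ET replicate 3 (0.0759).

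Levels between genes were compared in TPM, the length-corrected share of transcripts. Jund was the most abundant in every library, at 33.1 to 69.7 TPM and above the range of all the others, followed by Jun at 17.9 to 25.0 TPM. Junb (7.79 to 28.9 TPM), Egr1 (4.17 to 18.6), Nr4a1 (2.33 to 18.1), Maff (3.11 to 9.63), Fosl2 (2.01 to 6.36) and Fos (0.99 to 6.21) came next by mean TPM, and each neighbour in this order overlapped the one before it. Atf3 lay at 1.34 to 3.25 TPM and overlapped Fos. Fosb was the lowest, at 0.12 to 0.31 TPM and 14.0 to 38.0 expected counts per library, apart from all the others.

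**Figure D1:**
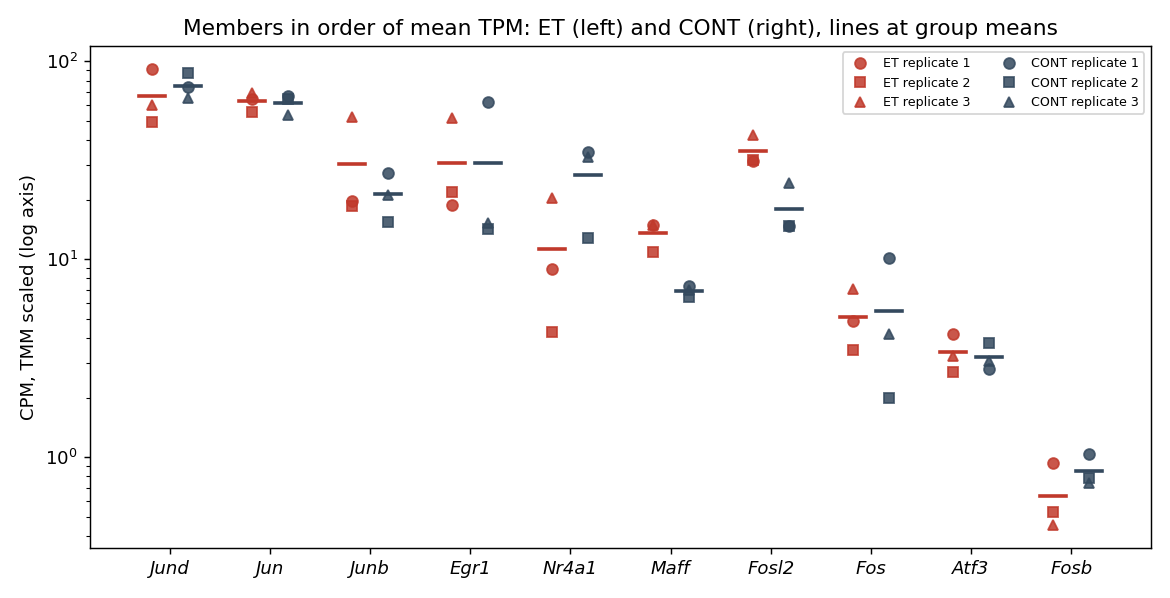
Normalised CPM (log axis) of each gene in the 6 libraries, with ET in red on the left and CONT in dark blue on the right, replicates by symbol and lines at the group means. Genes are ordered by mean TPM. The ET and CONT points do not overlap in Maff and Fosl2, and Egr1, Nr4a1, Junb and Fos spread most within a group.

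The comparison of ET with CONT asks how these factors stood in the ventricle after short ethanol feeding and a binge. Maff and Fosl2 had more mRNA in all 3 ET libraries, with fitted ratios of 1.95 and 1.97, while the group means of Fos, Egr1 and Jun lay close together and Nr4a1 averaged less in ET. After Benjamini-Hochberg adjustment over 15727 genes, edgeR's quasi-likelihood F test passed 0 of the 10 and 0% of all genes, with a lowest adjusted p of 0.427, and 1360 genes had an unadjusted p under 0.05. Of the 10, 2 had an unadjusted p under 0.05, both higher in ET, against 8.65% of all tested genes (4.19% higher and 4.46% lower). In these 2 genes, Maff and Fosl2, every ET library lay above every CONT library, as in 6.89% of all genes, and in 0 of the 10 every ET library lay below, as in 8.36% (15.2% in either direction). Of the 10, 6 had a log2 fold change above 0 and 4 below, with a median of 0.02, and 51.9% of all tested genes were above 0, with a median of 0.01. In a bulk sample fewer cells of a type and less RNA per cell cannot be told apart.

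Maff, a small MAF protein that pairs with NRF2, BACH1 or itself, stood at 14.8, 10.8 and 15.0 CPM in ET replicates 1 to 3, against 7.36, 6.44 and 6.98 CPM in CONT replicates 1 to 3. The CONT libraries lay close together and below every ET library. The means were 13.5 ± 2.34 CPM in ET and 6.93 ± 0.463 CPM in CONT (SD, n = 3 each), a log2 fold change of 0.97 ± 0.17 (SE; unadjusted 95% interval 0.57 to 1.37). This ranked 17th by p among all tested genes, and the adjusted p of 0.427 in edgeR did not pass. DESeq2 on the same counts called 184 genes (1.17%), Maff among them (adjusted p 0.00190), and over all alternatives its adjusted p ran from 0.00190 to 0.999.

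Fosl2 encodes FRA-2, a FOS protein that outlasts FOS after a stimulus. It was at 31.2, 31.9 and 42.5 CPM in ET and at 14.7, 14.7 and 24.2 CPM in CONT. CONT replicate 3 was the highest of its group and still below all ET libraries. The log2 fold change was 0.98 ± 0.24 (interval 0.41 to 1.55), with means of 35.2 ± 6.35 CPM in ET and 17.9 ± 5.49 CPM in CONT and an adjusted p of 0.478 in edgeR. DESeq2 also called Fosl2 (adjusted p 0.0371, range over all alternatives 0.0188 to 0.999). In the deposited TPM the groups were apart as well, at 6.03 ± 0.369 in ET and 2.71 ± 1.12 in CONT for Fosl2 and at 7.88 ± 1.69 in ET and 3.55 ± 0.410 in CONT for Maff.

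These differences were set beside the uneven libraries. Without ET replicate 1 and CONT replicate 3, the libraries of the highest atrial marker sums, group and library set coincide and cannot be told apart. The log2 fold changes of that fit were 0.92 for Maff and 1.36 for Fosl2, and edgeR called Fosl2 (adjusted p 0.0188) and not Maff (adjusted p 0.0503), with 5.27% of 15714 genes called. Without ET replicate 3, the library with the most neutrophil marker RNA, they were 0.89 and 0.82. Within library set 1 the log2 ratios were 1.10 for Maff and 1.09 for Fosl2, and within set 2 they were 0.89 and 0.62. Each set holds a group of 1 library, so these ratios carry no test.

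**Figure D2:**
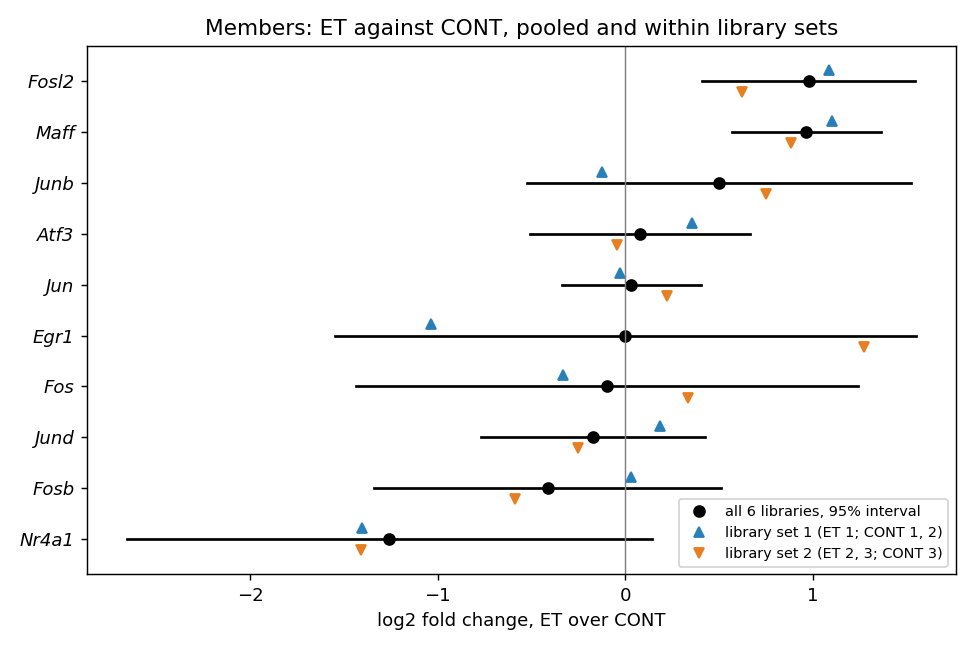
Log2 fold change of ET over CONT for each gene, as black points with unadjusted 95% intervals from edgeR, and the log2 ratio of mean CPM within library set 1 (blue) and set 2 (orange). Maff and Fosl2 lie above 0 in both sets and Nr4a1 below 0 in both, while Egr1 is at -1.04 in set 1 and 1.28 in set 2.

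Fos, Egr1, Nr4a1 and Junb varied widely between libraries of the same group. Their within-group SD of log2 CPM was 0.89, 1.02, 0.97 and 0.66, larger than in 95%, 96.7%, 96.1% and 88.5% of tested genes, and the median over all genes was 0.29. Singling out these 4 was done after their values were seen.

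Fos, the founding AP-1 gene, was at 4.85, 3.47 and 7.06 CPM in ET and at 10.2, 1.98 and 4.17 CPM in CONT. Both the highest and the lowest library were of CONT, 5.14-fold apart. Its log2 fold change was -0.10 ± 0.57 (interval -1.43 to 1.24), so that changes of more than a doubling in either direction lie within the interval. Its direction was not stable: 0.73 without CONT replicate 1 and -0.48 at the lowest among the other single-library omissions. Egr1 followed the same order at the top and bottom, with 18.7, 21.96 and 51.6 CPM in ET and 62.6, 14.2 and 15.2 CPM in CONT. The means were 30.8 ± 18.1 CPM in ET and 30.7 ± 27.7 CPM in CONT, with a log2 fold change of 0.00 ± 0.66 in edgeR. ET replicate 3 and CONT replicate 1 stood well above the other 4 libraries.

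Junb, a JUN protein that is a weaker activator than JUN, was at 19.6, 18.5 and 52.3 CPM in ET and at 27.4, 15.4 and 21.0 CPM in CONT. Its log2 fold change of 0.50 ± 0.43 rested on ET replicate 3, without which it was -0.16. The same library held the highest neutrophil marker sum, and the part of these cells in the Junb value was not tested. Nr4a1, an immediate early nuclear receptor, was at 8.99, 4.29 and 20.4 CPM in ET and at 34.7, 12.8 and 32.8 CPM in CONT. ET replicate 3 lay above CONT replicate 2, so the groups overlapped. The means of 11.2 ± 8.29 CPM in ET and 26.8 ± 12.1 CPM in CONT gave a log2 fold change of -1.26 ± 0.59 (interval -2.66 to 0.14, adjusted p 0.579 in edgeR). It was below 0 under every alternative run, from -2.01 without ET replicate 3 to -0.87 without ET replicate 2, and was -1.40 and -1.41 within the library sets. ET replicate 2, where Nr4a1 was lowest, had 3.47 CPM of Fos and 21.96 CPM of Egr1, neither the lowest of the 6.

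**Figure D3:**
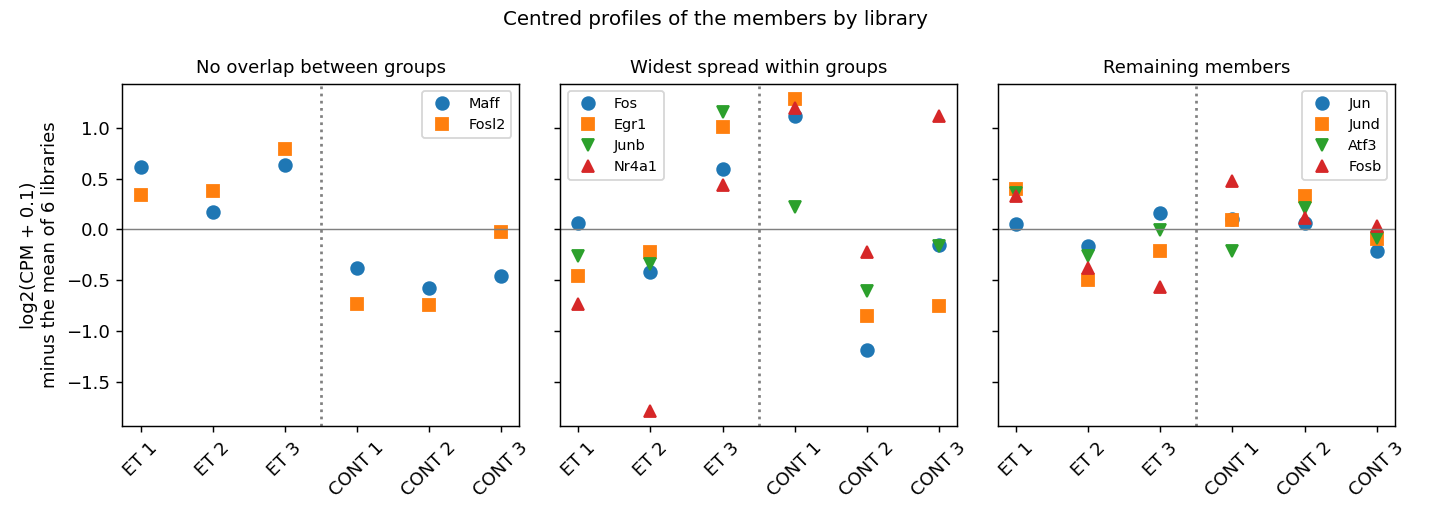
Log2(CPM + 0.1) of each gene minus its mean over the 6 libraries, by library, in 3 panels. Maff and Fosl2 are above every CONT value in the ET libraries, Fos, Egr1 and Nr4a1 peak in CONT replicate 1, Junb peaks in ET replicate 3, and Jun, Jund, Atf3 and Fosb stay within about 0.56 of their means.

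Jun, the main activating partner of FOS, was among the steadiest, at 64.4, 55.2 and 69.4 CPM in ET and at 66.4, 64.9 and 53.5 CPM in CONT. The log2 fold change was 0.03 ± 0.16, with an interval of -0.34 to 0.40. Jund, a constitutively expressed JUN protein, was at 91.7, 49.2 and 60.2 CPM in ET and at 74.2, 87.3 and 65.0 CPM in CONT, a log2 fold change of -0.17 ± 0.25. ET replicate 1 and ET replicate 2 were the highest and lowest of all 6. Without ET replicate 1 the log2 fold change of Jund was -0.45 (adjusted p 0.291 in edgeR), and without ET replicate 2 it was 0.007. Atf3 was at 4.21, 2.704 and 3.25 CPM in ET and at 2.79, 3.78 and 3.08 CPM in CONT (log2 fold change 0.08 ± 0.25, interval -0.51 to 0.66). Fosb, a FOS protein known for its stable splice form, was at 0.933, 0.529 and 0.456 CPM in ET and at 1.04, 0.786 and 0.740 CPM in CONT (-0.41 ± 0.39). Its interval of -1.34 to 0.51 spans moderate changes in either direction, at 14.0 to 38.0 expected counts per library.

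Effective lengths, which in these files average over the transcripts of a gene, were nearly equal between libraries for Jun (3114 to 3115 bases) and Maff (1824 to 1865). For Atf3 they were 1570, 1915 and 1459 bases in ET and 1916, 1914 and 1477 in CONT, so its estimated transcript mixture differed between libraries without following the groups. For Nr4a1 they were 2220, 1975 and 2351 bases in ET and 1760, 2360 and 2217 in CONT. TPM values of these genes carry this estimate and CPM values do not.

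Summed per length, the 4 FOS genes (the 3 described here and Fosl1) came to 9.78, 8.20 and 11.3 TPM in ET and to 8.84, 3.22 and 6.96 TPM in CONT. Fosl2 took 62.3%, 68.7% and 56.4% of that sum in ET and 24.0%, 62.4% and 57.6% in CONT. CONT replicate 1, where Fos alone made up 70.2%, was the exception, and the difference of 14.4 percentage points had an exact two-sided permutation p of 0.5, with 0.1 the smallest that 3 against 3 samples allow. Without CONT replicate 1 the difference was 2.44 percentage points. In expected counts, which do not correct for length, Fosl2 held 84.2%, 88.7% and 84.8% in ET and 56.5%, 84.1% and 83.0% in CONT. The means were 85.9% in ET and 74.5% in CONT (exact two-sided permutation p 0.1), and CONT replicate 1 was again the exception. Among the JUN genes, Jund held 64.3%, 52.1% and 41.9% of the sum in ET and 55.6%, 64.9% and 58.2% in CONT. Junb reached 33.4% in ET replicate 3, against 10.5% to 18.9% in the other 5 libraries. The JUN sum was 108, 63.5 and 86.6 TPM in ET and 76.9, 74.3 and 73.0 TPM in CONT.

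**Figure D4:**
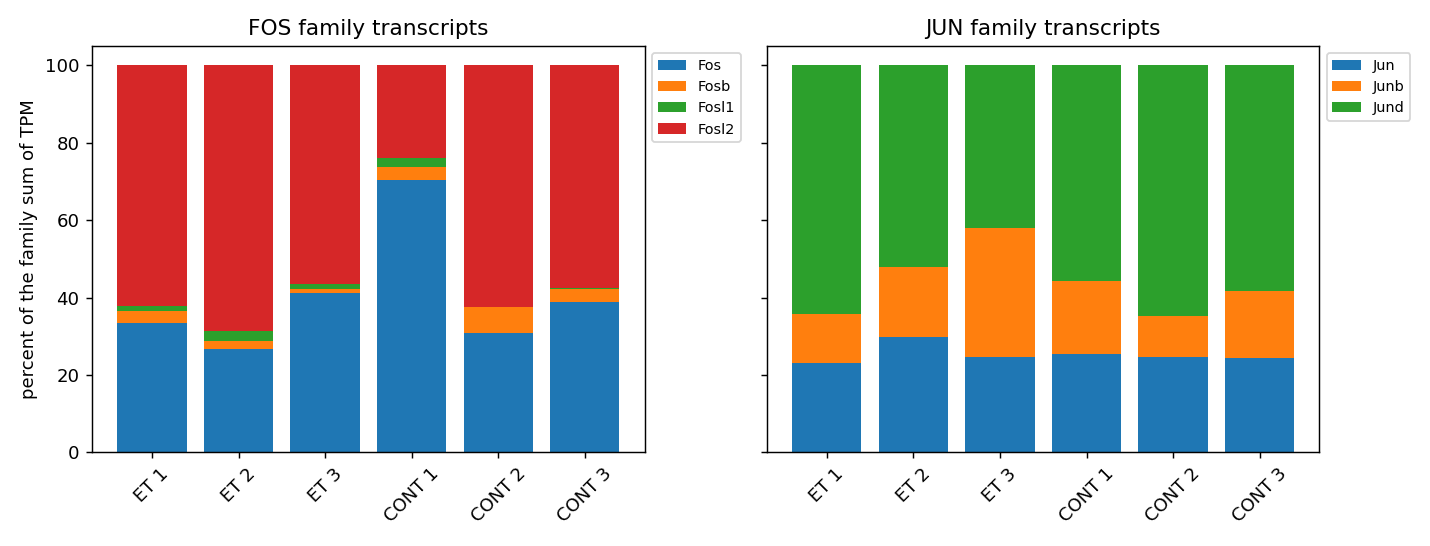
Share of each gene in the TPM sum of the FOS family (left) and the JUN family (right) in the 6 libraries, as stacked bars in percent. Fosl2 makes up 56.4% to 68.7% of FOS family transcripts in all libraries except CONT replicate 1 (24.0%), and Junb is largest in ET replicate 3 (33.4%).

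Close relatives of these factors, picked by family after the values were seen, did not move as a block. Among the EGR genes, Egr3 was at 3.79, 1.71 and 3.84 CPM in ET and at 1.61, 0.974 and 1.01 CPM in CONT (log2 fold change 1.37 ± 0.40). Egr2 was at 0.960, 0.647 and 2.47 CPM in ET and at 0.520, 0.449 and 0.325 CPM in CONT (1.64 ± 0.57). In both, every ET library lay above every CONT library, as in 6.89% of all genes and in Mafk and Mafa below. Egr1 overlapped widely. Egr2 and Mafa were low, at 0.325 to 0.520 CPM and 0.262 to 0.533 CPM in CONT, and are limited by depth. Egr4 was not among the tested genes. Nr4a2 had a log2 fold change of -0.10 ± 0.31 and Nr4a3 of 0.56 ± 0.41, beside -1.26 for Nr4a1. Of the other small MAF genes, Mafk had 0.45 ± 0.17 and Mafg -0.13 ± 0.13, and of the large MAF genes Mafa had 0.92 ± 0.43 and Maf 0.60 ± 0.30. None of these passed over all genes (adjusted p 0.508 or more in edgeR), and differences between relatives were not tested.

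**Figure D5:**
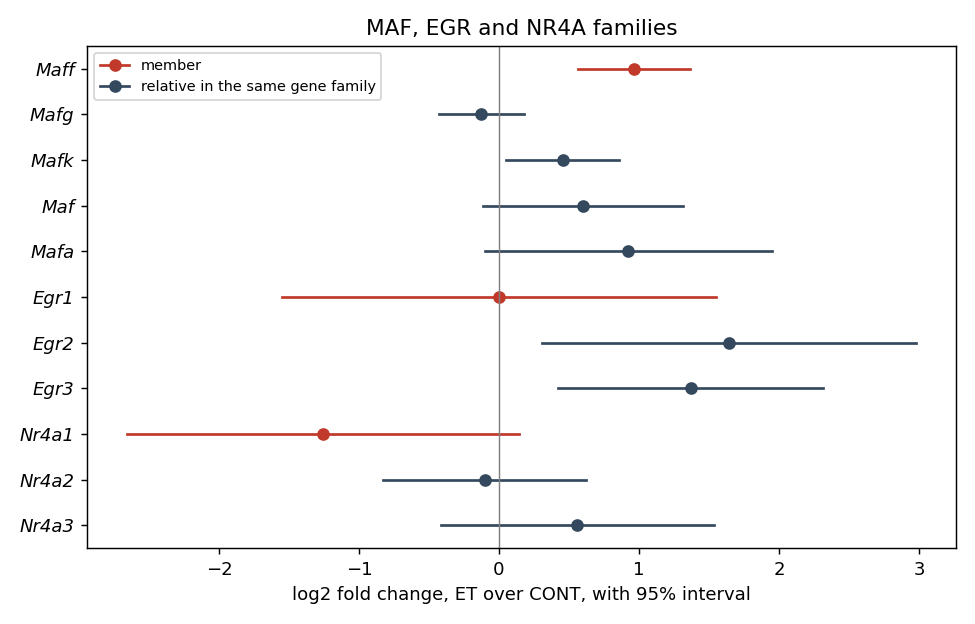
Log2 fold change of ET over CONT with unadjusted 95% intervals from edgeR for 11 MAF, EGR and NR4A genes, with Maff, Egr1 and Nr4a1 in red and their relatives in dark blue. Egr2 (1.64) and Egr3 (1.37) lie above 0, Egr1 is at 0.00, and Nr4a1 (-1.26) is the lowest of those plotted.

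Gene lists around these factors were chosen with earlier results of these data known and are described by counts. They are not fully separate: 5 of the leucine zipper factors also stand among the upstream factors (3) or the inhibitors (2). In edgeR over all 6 libraries, 0 of their genes passed at an adjusted p under 0.05. DESeq2 called 1 of the leucine zipper factors, 4 of the other immediate early genes and 6 of the genes listed as AP-1 or EGR1 targets, against 1.17% of all genes. Without CONT replicate 3 and ET replicate 1, edgeR called 3, 4 and 5 of them, against 5.27% of all genes. Of 37 other leucine zipper factors, 35 were tested, 22 were higher and 13 lower, with a median of 0.13. At an unadjusted p under 0.05, 4 were higher and 2 lower, against 4.19% and 4.46% of all tested genes. Ddit3, the stress factor CHOP, was at 13.8, 10.7 and 10.2 CPM in ET and at 16.9, 19.6 and 16.2 CPM in CONT (-0.60 ± 0.16).

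Of 55 other immediate early genes, 53 were tested, 35 were higher and 18 lower, with a median of 0.16. At an unadjusted p under 0.05, 8 were higher and 0 lower, against 4.19% and 4.46% of all tested genes. Klf10, a TGF-beta-inducible zinc finger factor, was at 23.5, 25.6 and 28.1 CPM in ET and at 14.0, 17.4 and 15.8 CPM in CONT (0.71 ± 0.14). Irf1, an interferon regulatory factor, was at 20.9, 22.3 and 14.4 CPM in ET and at 28.2, 34.0 and 19.4 CPM in CONT (-0.50 ± 0.25), with overlap. Without ET replicate 1 the counts were 8 higher and 1 lower, beside 8.78% and 7.47% of all genes.

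Upstream genes had medians near 0. Of 37 tested MAP kinase cascade genes, 21 were higher and 16 lower (median 0.04), 1 and 2 of them at an unadjusted p under 0.05, near the 4.19% and 4.46% of all genes. Mapk9, which encodes JNK2, had a log2 fold change of 0.30 ± 0.12 and Mapk11, which encodes p38 beta, -0.89 ± 0.24. Of 19 upstream transcription factors and coactivators, 12 were higher and 7 lower (median 0.05). At an unadjusted p under 0.05, 0 were higher and 1 lower, against the same shares of all genes. The acetyltransferase gene Ep300 had 0.30 ± 0.13 and the CREB coactivator gene Crtc1 -0.34 ± 0.13. Of 19 inhibitors and turnover factors, 13 were higher (median 0.17) and 0 reached an unadjusted p under 0.05. Itch, a ubiquitin ligase for JUN proteins, had 0.27 ± 0.13 and Fbxw7, which targets phosphorylated JUN, -0.29 ± 0.14.

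Of 39 genes listed here as AP-1 or EGR1 targets, a mixed list that is not specific to these factors, 37 were tested. Of these, 29 were higher and 8 lower, with a median of 0.55. At an unadjusted p under 0.05, 13 were higher and 2 lower, against 4.19% and 4.46% of all tested genes, of which 51.9% had a log2 fold change above 0. The list was chosen with earlier results of these data known. These counts may therefore partly reflect the choice, and activity of AP-1 or EGR1 on the genes was not tested. Lox, the collagen crosslinking enzyme, was at 32.5, 17.6 and 13.3 CPM in ET and at 2.85, 5.92 and 4.76 CPM in CONT (2.23 ± 0.40). Gja1, the gap junction protein connexin 43, was at 92.6, 106 and 155 CPM in ET and at 177, 230 and 188 CPM in CONT (-0.75 ± 0.24). Both separated the groups without overlap and neither passed (adjusted p 0.427 and 0.515 in edgeR). The list holds matrix genes, and fibroblast markers were highest in ET replicate 1. Without that library 23 of 37 were higher, the median was 0.27, and 11 were higher and 6 lower at an unadjusted p under 0.05, beside 8.78% and 7.47% of all genes.

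Likeness of pattern was measured as the mean absolute difference between centred log2 CPM profiles over the 6 libraries, among 13260 other genes with a mean CPM of at least 1. With 6 points and this many genes, a near profile can be found whether or not the genes are related. The measure is not scaled for spread. Distances therefore tend to be larger for genes that vary widely, and those of different genes are not on a like scale. Closest to Maff were Aldh1a1 (0.109) and Mylip (0.128), and closest to Fosl2 were Slc6a17 (0.087) and Tmtc1 (0.115). Tmtc1 ran at 122, 150 and 213 CPM in ET and at 63.1, 63.1 and 119 CPM in CONT. Fos was closest to Slc25a25 (0.322) and Zfp36 (0.329), and Junb to Slc25a25 (0.158) and Tmem56 (0.179). Egr1 was closest to Eps8l1 (0.332) and Cxcl1 (0.368), and Nr4a1 to Cntn2 (0.344) and Ankrd1 (0.399). Ankrd1, a stretch-responsive cardiac ankyrin repeat gene, was at 366, 64.0 and 605 CPM in ET and at 655, 339 and 708 CPM in CONT, lowest in the library where Nr4a1 was lowest. The distances of the other 4 genes to their nearest patterns were 0.022 to 0.062. Among the 10 themselves, the closest pairs were Jund and Atf3 (0.154), Jun and Atf3 (0.193), Fosb and Jund (0.211) and Jun and Jund (0.239). Fosl2 and Maff differed by 0.266 and Fos and Egr1 by 0.370. Nr4a1, which varied widely between libraries, differed by at least 0.773 from every other one.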

How the data were processed

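Bulk RNA-seq libraries of 3 ET and 3 CONT left ventricles were used, grouped by source name. STAR 2.7.0f and RSEM 1.2.31 with the mm10 build are named in the submitters' processing notes. No annotation release or strand setting is given in the sources used here. The authors deposited expected counts per gene, not normalized and not always whole, in 1 table. Separate files for each library hold TPM and FPKM, deposited by the authors with length correction, per the file headers. Library totals were 28838386 to 37762233 expected counts, and intervals rest on the spread between libraries.

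Expected counts were rounded to whole numbers, filtered with filterByExpr (minimum count 10, minimum total 15) and tested with edgeR 4.0.16 (TMM, robust quasi-likelihood, two-sided, Benjamini-Hochberg over 15727 genes, threshold 0.05, no covariate). The SE is the log2 fold change divided by the square root of F. Tests were tried on simulated data. Effective length is expected counts over FPKM, scaled by the total. Library sets came from average-linkage clustering of these lengths over 8113 genes, cut at 2 clusters. Replicate numbers were given here in accession order and only name a library. No 2 libraries of a group agreed within counting noise (chi-square per gene 18.8 to 190), so none was merged as a repeat deposit. This does not show that they are separate animals. Of 55487 gene IDs, 55394 were found in GENCODE vM21. Other software was DESeq2 1.42.0, limma 3.58.1 and R 4.3.3, with pandas 2.3.3, scipy 1.17.1, matplotlib 3.10.9 and Python 3.11.15.

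The 10 genes and all lists were chosen with earlier results of these data known. All 10 genes are described. Of each other list at most 1 gene per direction is named, by lowest p, and 2 nearest patterns per gene; 1 gene that the rule names is not reported here. Relatives and family shares were added after seeing the data. Alternatives were RLE, upper-quartile and no scaling factors, removal of mitochondrially encoded genes, no filter, a CPM filter of 1 in 3 libraries, limma-trend with log2(TPM + 0.1) or log2(TPM + 1) where the mean TPM reached 0.5, limma-voom, DESeq2, a term for the library set, and omission of single libraries or of CONT replicate 3 with ET replicate 1.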

Additional observations from a re-analysis of the deposited data

How the results depend on the processing

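Over all genes, edgeR called 0 under the scaling, filter, library set and single-library alternatives (range 0 to 0), as did limma-voom, against 184 with DESeq2, 2 and 1 with limma-trend for log2(TPM + 0.1) and log2(TPM + 1), and 828 without CONT replicate 3 and ET replicate 1, where group and library set coincide. Among the 10 genes the counts were 0, but 2 with DESeq2 (Maff and Fosl2) and 1 in the last fit (Fosl2). At an unadjusted p under 0.05 the count was 2 to 3 without single libraries. Omitting single libraries gave 0.89 to 1.10 for Maff, 0.82 to 1.27 for Fosl2, -2.01 to -0.87 for Nr4a1, -0.78 to -0.23 for Fosb, -0.48 to 0.73 for Fos, -0.60 to 1.07 for Egr1, -0.16 to 0.76 for Junb, -0.049 to 0.12 for Jun, -0.45 to 0.007 for Jund and -0.093 to 0.21 for Atf3.

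The direction of Maff, Fosl2 and Nr4a1 held under all 18 alternatives run, and that of Fosb under the 15 in which it was tested. Fosb was not tested with the CPM filter of 1 in 3 libraries or in either TPM setting. Fos turned to 0.06 (limma-voom), 0.18 and 0.31 (log2(TPM + 1) and log2(TPM + 0.1)), Jun to -0.015 (upper-quartile) and -0.054 (without CONT replicate 3 and ET replicate 1), Atf3 to -0.12 in that last fit, and Egr1 to -0.068 (upper-quartile), -0.009 (CPM of at least 1 in 3 libraries) and -0.047 (that last fit). The cause was not tested. Library totals and both TPM settings put the median of all genes at 0.12, 0.15 and 0.18, against 0.01 with TMM. The leucine zipper list had 12 genes higher at an unadjusted p under 0.05 without CONT replicate 3 and ET replicate 1, beside 15.4% of all genes. The mean Fosl2 share was higher in ET in expected counts too (by 11.4 percentage points), where CONT replicate 1 was again far below the other libraries (56.5%). The TPM difference ran from 2.44 to 21.7 without single libraries. No paired analysis was possible because the labels give no replicate numbers, and those used here follow accession order. Fosb, Fosl1, Egr2 and Mafa are limited by depth.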
